A study of Homo sapiens with 2 samples.

Results

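Transcripts for 5 proteins that neutrophils and their relatives store in granules were described here: MPO, PRTN3, LYZ, LCN2 and RNASE2. They were chosen because earlier work on the same tables had found them listed, so their presence is the selection rule and not a result. The tables list 5851 gene symbols in all. The primary granule genes ELANE, AZU1 and CTSG, which no table lists, are set beside them.

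The material was HL-60, an established cell line from a human promyelocytic leukaemia, with RNA precipitated by an antibody against ALKBH5 and RNA of the whole lysate. ALKBH5 is a demethylase that erases N6-methyladenosine, a mark on messenger RNA. The immunoprecipitate came from 80% of the lysate and the input from 10%, and the labels carry 1 library of each. The labels name no treatment, time or engineered change in either library, and their genotype field gives only ALKBH5. The library names begin with Ctrl, which the labels do not explain. The title of each library contradicts its library name, and groups follow the library name. An IgG precipitate made from the remaining lysate was not analysed here. HL-60 is a leukaemic line arrested near the promyelocyte stage, so it is not a model of the mature neutrophil.

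Neutrophils make their granules in sequence. Primary (azurophil) granules are filled at the promyelocyte stage, specific granules at the following stage and gelatinase granules last. Each protein is packed where it is being made, so granule content follows the timing of transcription. Release of granule content at the cell surface or into the phagosome is called degranulation.

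The tables give no level, no peak position and no value per library. A gene is either an entry of a Gene Ontology (GO) term or a KEGG pathway, or it is not; an entry is a gene identifier paired with a symbol. They hold 311 GO terms and 38 KEGG pathways. A gene outside every listed term could not appear in the GO and KEGG tables, and its absence does not show that it lacked a peak. Each group has 1 library, so nothing could be checked against replicates, and no difference between immunoprecipitate and input could be computed for any gene. Depth is unknown. Of 10 genes taken as promyelocytic markers, 5 were listed (MPO, CD33, CD44, PRTN3 and NPM1) and ELANE, AZU1, CTSG, SRGN and CD38 were not, beside 26.9% of all protein-coding genes. MPO, PRTN3, ELANE, AZU1 and CTSG were placed on their sides by the choice of genes, so the count is no check of the label on its own. Of 15 markers of T, B, erythroid, platelet and epithelial cells, the 3 epithelial ones (EPCAM, KRT18 and KRT19) were listed, and their part in the granule results was not tested.

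The bases before the annotated start are shown for the members with an entry in the RefSeq promoter table (3 of 5, GRCh38.p14). As unlisted relatives or neighbours, AZU1 is set beside PRTN3 and RNASE3 beside RNASE2, and none is printed beside LCN2. Granule genes of the promyelocyte are textbook targets of C/EBP factors and PU.1, so the letters TTGCNNAA (C/EBP) and GAGGAAG (PU.1), on either strand, are in capitals. Both motifs were picked with the sequences in view. Each line runs 5′ to 3′ on the gene's strand over the 250 bases before the start, and all of these genes lie on the plus strand.
PRTN3, listed, chr19:840749-840998: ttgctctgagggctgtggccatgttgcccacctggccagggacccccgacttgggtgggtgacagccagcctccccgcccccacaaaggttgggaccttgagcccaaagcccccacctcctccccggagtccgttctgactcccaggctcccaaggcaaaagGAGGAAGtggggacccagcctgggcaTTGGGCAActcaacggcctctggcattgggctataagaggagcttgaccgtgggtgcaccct
AZU1, not listed, chr19:827587-827836: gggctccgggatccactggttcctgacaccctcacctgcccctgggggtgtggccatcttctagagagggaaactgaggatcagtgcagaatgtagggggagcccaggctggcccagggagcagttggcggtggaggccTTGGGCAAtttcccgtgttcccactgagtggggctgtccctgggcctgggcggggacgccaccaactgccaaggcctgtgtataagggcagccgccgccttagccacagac
RNASE2, listed, chr14:20955237-20955486: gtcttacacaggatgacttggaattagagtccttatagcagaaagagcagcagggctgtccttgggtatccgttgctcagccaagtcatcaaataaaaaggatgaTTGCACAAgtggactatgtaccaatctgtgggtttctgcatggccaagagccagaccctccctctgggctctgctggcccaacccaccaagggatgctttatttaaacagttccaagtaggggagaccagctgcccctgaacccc
RNASE3, not listed, chr14:20891135-20891384: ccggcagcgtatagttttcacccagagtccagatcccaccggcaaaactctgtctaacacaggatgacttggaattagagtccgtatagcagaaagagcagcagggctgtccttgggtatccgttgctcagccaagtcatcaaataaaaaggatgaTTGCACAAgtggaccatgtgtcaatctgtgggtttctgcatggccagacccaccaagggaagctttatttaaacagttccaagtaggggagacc
LCN2, listed, chr9:128149203-128149452: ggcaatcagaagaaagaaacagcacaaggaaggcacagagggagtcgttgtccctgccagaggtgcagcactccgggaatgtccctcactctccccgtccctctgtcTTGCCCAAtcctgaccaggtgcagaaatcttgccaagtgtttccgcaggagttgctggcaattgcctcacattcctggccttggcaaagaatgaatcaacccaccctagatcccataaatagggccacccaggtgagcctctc

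The C/EBP letters stood in all 5 printed windows, beginning 62 bases before the start in PRTN3 and 111 in AZU1, 145 in RNASE2 and 94 in RNASE3, and 143 in LCN2. They occurred in 9.13% of 27305 RefSeq windows of this length. The PU.1 letters stood in PRTN3 alone among the printed windows, 88 bases before the start, and occurred in 11.0% of all windows. CTSG, whose window is not printed, held the PU.1 letters at 2 places and the C/EBP letters at none. The C/EBP letters stood in listed and unlisted printed windows alike, while CTSG, also unlisted, lacked them. Both motifs were picked with these sequences in view, so nothing about listing is read from the matches. A match describes letters and not binding.

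MPO and PRTN3 are the primary granule members. MPO encodes myeloperoxidase, the haem enzyme that makes hypochlorous acid from hydrogen peroxide and chloride. The gene (identifier 4353) lies on chromosome 17 from 58269855 to 58280935 (GRCh38.p14, 11.1 kb). It was an entry of 7 terms, 5 of GO and 2 of KEGG, the most of any member. Only 32.5% of the 5614 symbols in the GO and KEGG tables had as many terms or more, against a median of 4 terms per symbol.

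Of the 7 terms of MPO, 3 were nuclear. In the authors' deposited table it was an entry of nucleoplasm (1939 entries on 3630 background genes, corrected p 3.05e-20) and nucleus (2319 on 5208, corrected p 0.00503). The authors' deposited table also placed it in chromatin binding (237 on 443, corrected p 0.0477). Nucleoplasm and nucleus record where the protein has been reported, and chromatin binding a molecular function given to it. None of the 3 records where its RNA lay, and they are the ones of its 7 with a corrected p under 0.05. In the tables as a whole, 12.2% of GO terms and 5.26% of KEGG pathways were below that limit.

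The other terms of MPO included 2 KEGG pathways. In the authors' deposited table Phagosome had 81 entries on 152 genes (corrected p 0.218) and Acute myeloid leukemia 38 on 66 (corrected p 0.288). The authors' deposited table gave intracellular membrane-bounded organelle 384 entries on 788 genes (corrected p 0.158). MPO was the 1 member in a KEGG pathway, where 5.69% of protein-coding genes stood. Of the 5201 protein-coding genes in the GO or KEGG tables, 1142 were in a KEGG pathway. Among other genes with at least 3 terms, the term sets most like that of MPO were those of the transcriptional repressor CIC and the chromatin remodelling subunit SMARCD1. Each shared 4 terms with MPO (Jaccard index, shared over combined terms, 0.444). CC2D1B followed with 3 shared terms (0.429), as 1 of 5 genes tied at that value. Likeness was measured over 349 terms, and the genes share the annotation source.

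PRTN3 encodes proteinase 3, a serine protease of primary granules and the main target of the autoantibodies of granulomatous vasculitis. The gene (identifier 5657) lies on chromosome 19 from 840999 to 848175 (7.18 kb). It was an entry of 5 GO terms and of no KEGG pathway, close to the median, with 50.8% of symbols in fewer terms. In the authors' deposited table these were cytosol (2462 entries on 5095 genes, corrected p 5.9e-11), enzyme binding (186 on 353, corrected p 0.202) and positive regulation of GTPase activity (153 on 307, corrected p 0.712). The authors' deposited table also gave phagocytosis 36 entries on 60 genes (corrected p 0.972). The term sets most like that of PRTN3 were those of the annexin ANXA3 (3 shared terms, Jaccard index 0.429), the exchange factor PREX1 and the granule priming factor UNC13D (3 shared terms and 0.375 each).

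PRTN3 sits in a cluster of related genes, and it was the listed one. AZU1, which encodes the antimicrobial azurocidin, ends 8.98 kb before it, and ELANE, which encodes neutrophil elastase, begins 4.13 kb after it. CFD, the gene of complement factor D, follows ELANE at 3.42 kb. None of these 3 neighbours was listed. ELANE (identifier 1991, chromosome 19 from 852303 to 856243, 3.94 kb), AZU1 (identifier 566, chromosome 19 from 827837 to 832018, 4.18 kb) and CTSG (identifier 1511, chromosome 14 from 24573518 to 24576250, 2.73 kb) were absent under their symbols. No other symbol carried their identifiers either. CTSG encodes cathepsin G, and its flanking genes CMA1 and GZMH, which encode mast cell chymase and granzyme H, were not listed. Of the 12 genes of this serine protease family, PRTN3 was the listed one. Each family count given here holds a member by selection and has a 95% interval that covers the 26.9% of all protein-coding genes, so nothing is read from it.

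MPO had a relative beside it that was listed. LPO, the gene of lactoperoxidase, lies 1.34 kb from MPO on chromosome 17 and was an entry of 1 term. TSPOAP1, 20.3 kb away on the other side of MPO, was listed too. EPX, the gene of eosinophil peroxidase in the same region, was not listed. Of 6 haem peroxidase genes, MPO and LPO were the listed ones. The sources used here do not say how the authors assigned a peak to a gene.

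LYZ encodes lysozyme, which cleaves bacterial cell walls and is stored in primary, specific and gelatinase granules alike. The gene (identifier 4069) lies on chromosome 12 from 69348381 to 69354234 (5.85 kb). It was an entry of 1 term, neutrophil degranulation. Its flanking genes CPSF6 and YEATS4 were not listed, and none of the other 7 genes of the c-type lysozyme family was.

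LCN2 encodes neutrophil gelatinase-associated lipocalin, a specific granule protein that binds bacterial siderophores and so withholds iron. The gene (identifier 3934) lies on chromosome 9 from 128149453 to 128153453 (4.0 kb). Of its flanking genes PTGES2, 21.0 kb before it, was listed and BBLN was not. It was an entry of 2 terms, cytosol and neutrophil degranulation, and 3 other symbols had exactly this pair: CPPED1, NAPRT and RP11-661A12.9. Of 15 lipocalin genes, LCN2, ORM1 and ORM2 were listed, the last pair being the genes of the plasma protein orosomucoid. ORM1 and ORM2 are near-identical copies, so their listing as separate genes is uncertain.

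RNASE2 encodes eosinophil-derived neurotoxin, an RNase A family ribonuclease of eosinophil granules. The gene (identifier 6036) lies on chromosome 14 from 20955487 to 20956436 and spans 0.95 kb. It too was an entry of neutrophil degranulation alone. RNASE3, the gene of eosinophil cationic protein, is its close copy and lies 63.1 kb before it, and it was not listed. METTL17, 33.5 kb after RNASE2, was. Of 8 RNase A family genes, RNASE2 was the listed one. In a local alignment of the 300-base RefSeq windows around the starts of RNASE2 and RNASE3, 242 of 249 paired bases were identical, with 34 gap positions. With gaps counted, identity was 85.5% over 283 aligned columns. Most of each window (250 bases) lies before the start, so the alignment does not measure likeness of the transcripts. Whether reads were divided between the 2 genes was not tested, so the listing of one and not the other is uncertain.

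**Figure D1:**
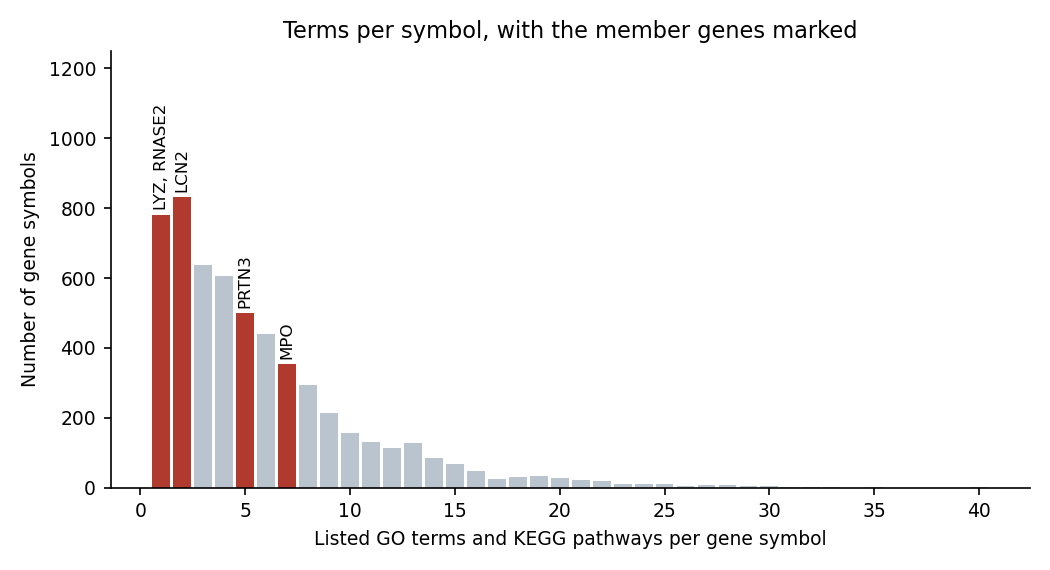
Number of gene symbols (vertical axis) by the number of listed GO terms and KEGG pathways in which each was an entry (horizontal axis). Red columns hold the member genes: LYZ and RNASE2 at 1 term with 779 symbols in that column, LCN2 at 2, PRTN3 at 5 and MPO at 7.

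Neutrophil degranulation was the term that held all 5 members, and they shared little else. LYZ and RNASE2 were listed through this term alone, so their sharing of it follows from the choice of members and is not a result. Over their 16 memberships the 5 members stood in 11 distinct terms. Cytosol, with PRTN3 and LCN2, was the only other term with more than 1 of the members. PRTN3 and MPO, though both of the primary granule, had 1 term in common (Jaccard index 0.091). PRTN3 and LCN2, of different granules, had 2 (0.4), but LCN2 stood in only 2 terms, 1 of them cytosol with 2462 entries. That is below the 3 terms asked for in the likeness above, so nothing about granule type is read from these indices. LYZ and RNASE2 had identical sets. In terms with a corrected p under 0.05 as deposited, MPO, PRTN3 and LCN2 were entries (3 of 5 members, beside 22.9% of protein-coding genes), and LYZ and RNASE2 were not. The members were chosen as listed genes, so the 22.9% is no yardstick for them. Of the 5201 protein-coding genes in the GO or KEGG tables, 4584 stood in such a term.

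In the authors' deposited table neutrophil degranulation had 237 entries on 482 background genes, a rich factor of 1.48, a p of 0.00638 and a corrected p of 0.412. Its p was rank 106 among the 311 GO terms. The entries came to 49.2% of the background genes (exact Clopper-Pearson 95% interval 44.6 to 53.7%, which covers counting error only). The median share over all GO terms of the tables was 68.8%, and 10 GO terms had a smaller share. Among those 10 were the larger terms nucleus (44.5%) and cytosol (48.3%), which had smaller p-values as deposited. Shares were not adjusted for the size of a term. Counted by distinct gene identifier, 222 genes remained (46.1%, 95% interval 41.5 to 50.6%), since 15 entries repeated an identifier. The median over GO terms counted in the same way was 62.5%. None of the member identifiers was carried by a second symbol, whereas 11.9% of the symbols in the GO and KEGG tables shared theirs with another.

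LYZ and RNASE2 rested on that term entirely. Of its 237 entries 18 (7.59%) stood in no other listed term, and the 16 besides LYZ and RNASE2 included the orosomucoid genes ORM1 and ORM2, the properdin gene CFP and the receptor genes CLEC12A, SIGLEC9 and LILRB3. In the GO and KEGG lists as a whole, 13.9% of symbols had 1 term. The median entry of neutrophil degranulation stood in 6 terms.

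Terms for granule contents were in the tables without any member. The members were entries of other terms, so this absence does not show that they lacked a peak. In the authors' deposited table secretory granule lumen had 73 entries on 114 genes (corrected p 0.18) and ficolin-1-rich granule lumen 81 on 123 (corrected p 0.0767). Neither held a gene of any granule, family, regulator or release list used here. No listed term had a name containing defense, antimicrobial, peroxid, serine-type, extracellular or peptidase. The rule by which the authors listed terms is not stated in the sources used here.

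**Figure D2:**
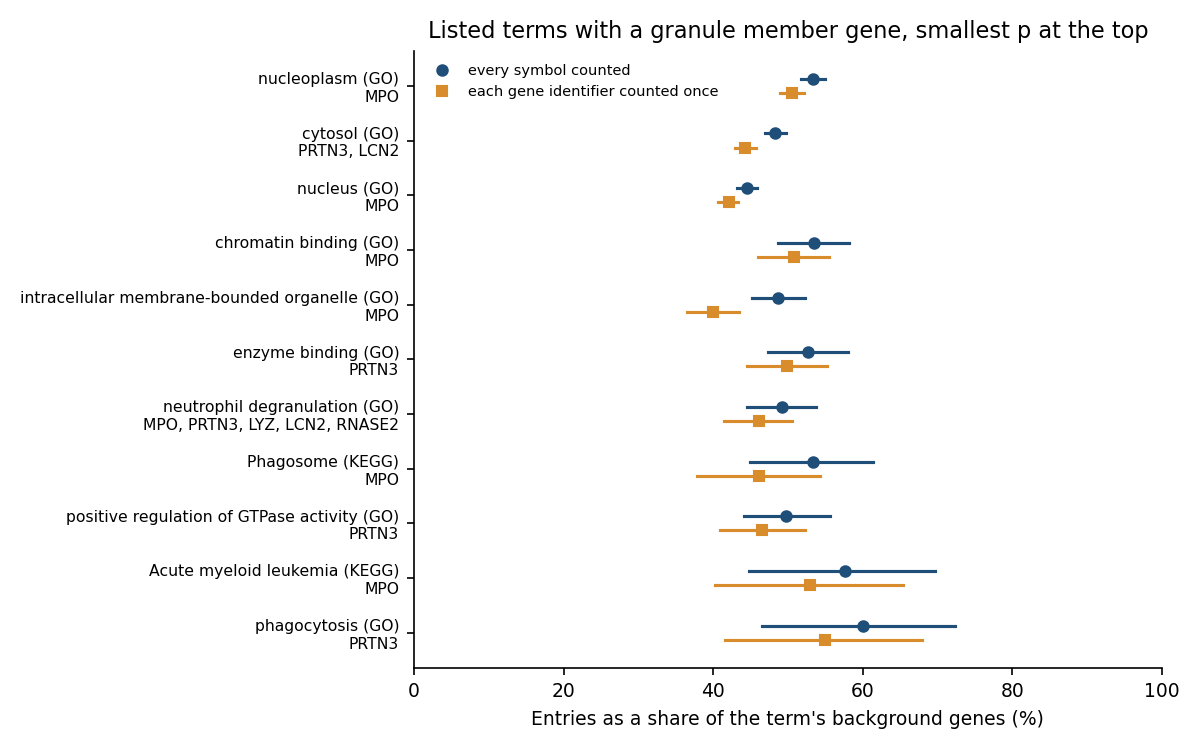
Entries as a share of each term's background genes (horizontal axis, percent) for the 11 listed terms that held a member, with the members under each term name. Circles count every symbol and squares each gene identifier once, with exact 95% intervals as lines; neutrophil degranulation, the term with all 5 members, stands at 49.2% and 46.1%.

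The granule protein genes were also counted by granule type. Of 13 primary granule genes, MPO and PRTN3 were listed (15.4%, 95% interval 1.92 to 45.4%). Beside ELANE, AZU1 and CTSG, those not listed were PRSS57, BPI, the defensins DEFA1, DEFA1B, DEFA3 and DEFA4, CD63 and SRGN. The defensin genes are near-identical copies, which reads may not tell apart. Of 12 specific granule genes LCN2 and ORM1 were listed (16.7%), and LTF and CAMP, which encode lactoferrin and cathelicidin, were not. Of 5 gelatinase granule genes ADAM8, a membrane metalloprotease, was listed with 4 terms, and MMP9, the gelatinase itself, was not. Of 6 eosinophil granule genes RNASE2 was the listed one. With LYZ, that made 7 of 37 granule protein genes (18.9%, 95% interval 7.96 to 35.2%).

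The share among all 20056 protein-coding genes was 26.9% (25.9% in the GO and KEGG tables without the family table), which lies inside that interval. The 37 granule protein genes had a median length of 6.78 kb, in a length class (6310 to below 10000 bp) where 20.7% of genes were listed. The 5 members are in the count by selection, so nothing is read from it.

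**Figure D3:**
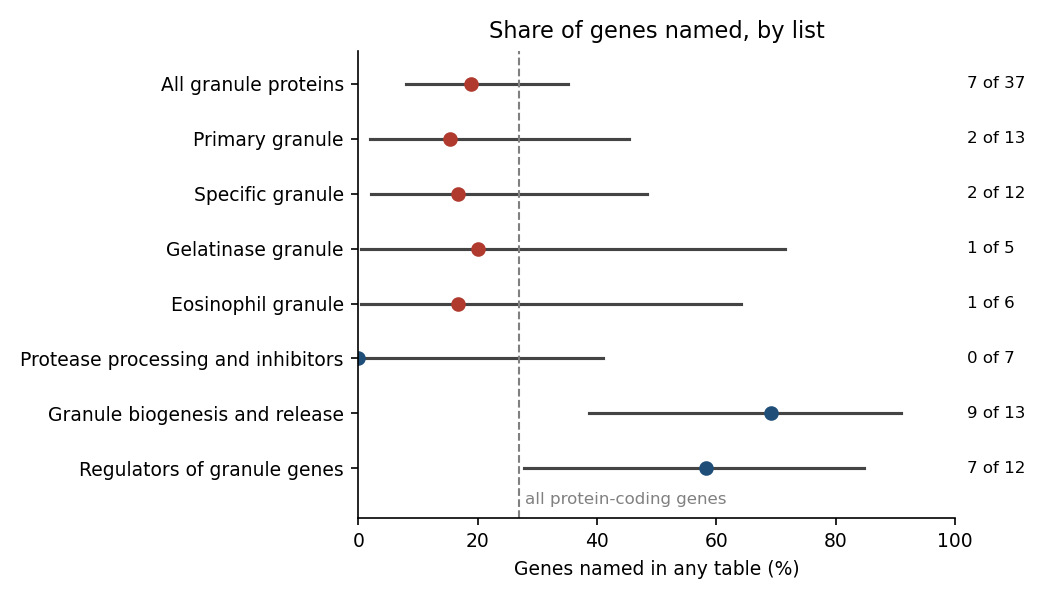
Share of genes listed in any table (horizontal axis, percent) for each gene list, with exact 95% intervals as lines, counts at the right and the share of all protein-coding genes (26.9%) as a dashed line. The granule protein lists shown (red) lie between 15.4% and 20.0%, with LYZ, a class of 1 gene, counted only among all granule proteins. Of the lists in blue, protease processing and inhibitors lies at 0%, biogenesis and release at 69.2% and regulators at 58.3%. The lists were chosen with earlier results of these data known.

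The share of genes listed varied with gene length, rising up to about the middle of the range and falling again in the longest genes. The median member spanned 5.85 kb of the genome, and the median listed protein-coding gene 35.4 kb. Of the listed protein-coding genes 16.6% were shorter than MPO, 9.41% than PRTN3, 7.13% than LYZ and 3.86% than LCN2. RNASE2 was among the shortest, with 14 listed protein-coding genes (0.26%) below it. Among the 6145 protein-coding genes no longer than MPO, 14.6% were listed, against 32.3% of longer ones. In the length class of RNASE2, from 631 to below 1000 bp, 8 of 343 genes were listed (2.33%), and in that of MPO, from 10000 to below 15849 bp, 26.6%. The share was 35.5% from 100000 to below 158489 bp and 7.14% in the longest class, from 1000000 to below 1584893 bp. ELANE (3.94 kb), AZU1 (4.18 kb) and CTSG (2.73 kb) fell within the range of lengths of the listed members, whose lower end is RNASE2. All 3 were shorter than the listed primary granule genes PRTN3 (7.18 kb) and MPO (11.1 kb). Other unlisted primary granule genes, PRSS57 (9.91 kb), SRGN (17.2 kb) and BPI (33.4 kb), were longer than PRTN3. The part of length in the listing of granule genes was not tested.

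**Figure D4:**
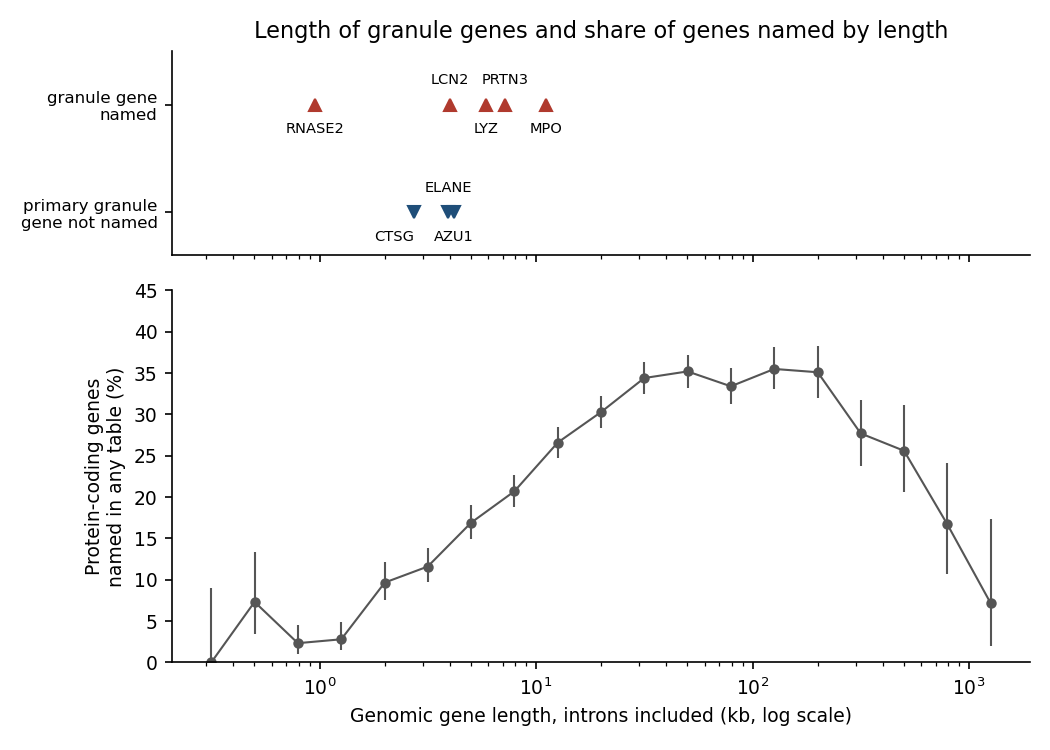
Upper panel, genomic length in kb (log scale) of the 5 listed granule genes (red) and of ELANE, AZU1 and CTSG (blue). Lower panel, percent of protein-coding genes listed in any table by length class with exact 95% intervals, which is 2.33% in the class of RNASE2, 26.6% in that of MPO, 35.5% at its highest and 7.14% in the longest class.

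Genes that act on granule proteins or their genes were counted in the same way. None of 7 genes for processing or inhibiting the granule proteases was listed (95% interval up to 41.0%). They were CTSC, whose product cathepsin C activates PRTN3, ELANE and CTSG, the inhibitors SERPINA1, SERPINB1, SERPINB6 and SLPI, and the cystatins CST3 and CST7. Of 13 genes for granule biogenesis and release 9 were listed (69.2%, 95% interval 38.6 to 90.9%), against the 26.9% of all protein-coding genes. The 13 genes had a median length of 52.0 kb, in a length class (39811 to below 63096 bp) where 35.2% of genes were listed. The list was chosen with earlier results of these data known, so nothing is read from the count. UNC13D and STXBP2, the priming and docking factors whose loss causes familial haemophagocytic lymphohistiocytosis, were entries of neutrophil degranulation beside the members. UNC13D shared 3 terms with PRTN3, and STXBP2 2. LYST, the gene of Chediak-Higashi syndrome with its giant granules, shared cytosol and phagocytosis with PRTN3. AP3B1 and AP3D1, subunits of the adaptor that sorts granule cargo, shared none of the 11 terms. HPS1, HPS4, VPS45 and VPS13B were the others listed, VPS13B in the RNA-binding family table alone, and RAB27A, STX11, SNAP23 and VAMP8 were not listed.

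Of 12 regulators of granule genes 7 were listed (58.3%, 95% interval 27.7 to 84.8%), beside 26.9% of all protein-coding genes. The list was chosen with earlier results of these data known, so nothing is read from the count. The 7 were CEBPA, CEBPB, GFI1, RUNX1, CBFB, GATA2 and KMT2A. All 7 shared at least nucleoplasm and nucleus with MPO. CEBPA, the factor that starts granulocyte differentiation, shared 5 terms with it and RUNX1 shared 4, in each case including Acute myeloid leukemia. CEBPE, the factor for specific granule genes, SPI1, which encodes PU.1, and MYB were not listed, nor were CEBPD and GATA1.

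None of the 5 members was in the table that pairs genes with families of RNA-binding proteins. That table holds 1348 symbols and 4 families. It held 6.14% of all protein-coding genes and 19.8% of the symbols in the GO and KEGG tables, and 13.1% of the entries of neutrophil degranulation. It also held none of the 37 granule protein genes and none of the 5 protein families' other members. Of the genes around the granule, UNC13D was paired with 3 families, KMT2A with 2, and VPS13B, RUNX1 and CBFB with 4 each.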

How the data were processed

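The RNA precipitated with ALKBH5 and the input RNA of HL-60 cells were sequenced, with 1 library each, from stranded libraries per the labels' protocols. Per the submitters' processing notes, hg38 was the build used. For the aligner, peak caller, thresholds and the role of the IgG control, no source used here gives details. Per the file headers, the authors deposited for each term the number of entries and of background genes, a rich factor (a fold, the term's share of entries relative to the overall share), a p-value and a corrected p-value. The entry number equalled the entries listed in all 349 terms. The remaining deposited table sets gene symbols beside RNA-binding protein families.

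Symbols were matched whole to RefSeq genes of GRCh38.p14, by symbol and then older symbols (5478 of 5851 matched), so that CLCN2 was not taken for LCN2. Shares, exact Clopper-Pearson 95% intervals and Jaccard indices were computed in Python 3.11.15 with pandas 2.3.3 and scipy 1.17.1, and windows were aligned with Biopython 1.88 (match 1, other scores negative). The code was checked on simulated tables. No test between groups was run: the tables carry no value per library. The p-values are the authors' and describe gene lists, not replicate spread. Members and lists were chosen with earlier results of these data known. Named genes were the members, ELANE, AZU1 and CTSG, listed genes of each list, and the 3 genes most like a member with at least 3 terms. Depth per sample is unknown.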

Additional observations from a re-analysis of the deposited data

How the results depend on the processing

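Alternatives were planned except the limit on gene length, which was chosen after seeing the data, as were the genes left out of the shorter granule list. Of the 5 members, 1 (MPO) was in the KEGG table alone and 3 (MPO, PRTN3 and LCN2) were in terms with a corrected p under 0.05; LYZ and RNASE2 were not. The 26.9% of protein-coding genes listed became 9.16% among genes of any biotype, 25.9% in the GO or KEGG tables, 22.9% in terms with a corrected p under 0.05 and 14.6% among genes no longer than MPO. With each identifier counted once, the share of entries moved outside its interval for nucleoplasm (50.6%), cytosol (44.3%), nucleus (42.1%) and intracellular membrane-bounded organelle (40.0%), and stayed inside it for the other 7 terms. Restricted to terms with a corrected p under 0.05, the 7 listed granule genes became 4: specific granule 1, LYZ 0 and eosinophil granule 0, with primary granule at 2 and gelatinase granule at 1. Without 10 genes of several granules or of other cells they also became 4. These were primary granule 2, specific granule 1, gelatinase granule 0 and eosinophil granule 1, where RNASE2 stayed in. LYZ, in a class of its own, was not among them. With likeness as shared terms over the smaller set, 1 of the 3 genes most like MPO and 0 of those most like PRTN3 were the same. No paired analysis was possible because each group has 1 library and no result comes from a test between groups.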
